A study of Mus musculus with 16 samples.

Results

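Kupffer cells, the macrophages that live in the sinusoids of the liver, were followed through the transcripts of 10 genes that mark them, Clec4f, Timd4, Vsig4, Cd5l, Marco, Folr2, Cd163, Id3, Adgre1 and Csf1r. The genes were taken by name from the 25719 genes of the deposited table, in which each name occurs once, as known markers of these cells. RNA of whole liver was sequenced from 16 male mice, with 1 library per mouse, and by the study's methods mice were 8 to 12 weeks old when put on a diet. There were 9 WT mice (C57BL6J) and 7 Klrk1-/- mice, which lack the activating receptor NKG2D in every cell that would carry it. Of the WT mice, 4 were given normal chow diet (NCD) and 5 a steatosis-steatohepatitis diet (SSD) rich in animal fat, fructose and cholesterol, and of the Klrk1-/- mice, 4 were given NCD and 3 SSD, for 3 weeks. The lines were kept as breeding colonies and the sources used here do not say whether littermates were compared, so colony and genotype cannot be told apart.

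Resident Kupffer cells arise from precursors seeded before birth and renew themselves in the liver, and when they are lost, blood monocytes can take their place and acquire the same genes with time. Clec4f, a lectin that binds galactose, and Timd4, a receptor for phosphatidylserine on dying cells, are regarded as markers of this resident identity. Vsig4 and Marco catch complement-coated particles and bacteria from the blood, Cd163 takes up haemoglobin bound to haptoglobin, Cd5l is a secreted protein induced by liver X receptors, and Folr2 is a folate receptor. Id3 is a transcriptional regulator that Kupffer cells need, while Csf1r, the receptor for the growth factors CSF1 and IL-34, and Adgre1, which encodes F4/80, are made by most macrophages.

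The libraries held 19892025 to 28936707 reads on genes, and every marker had at least 33 reads in every mouse. Values are normalized counts as the authors deposited them, in which the reads of a mouse are divided by 1 factor. Klrk1, the deleted gene, had 20.1 to 71.1 normalized counts in WT mice and 0.966 to 8.71 (1 to 7 reads) in Klrk1-/- mice. In bulk liver RNA, fewer Kupffer cells and less RNA per Kupffer cell cannot be told apart. SSD-fed WT mice 1 and 4 stood apart from their group. Both were above all other 14 mice for 7 of the 10 markers, and they lay at 66.0 and 44.2 on the first principal component of all expressed genes, against 29.5 to 39.4 for the other 3 mice of the group. Mouse 1 also had the highest summed level of the 10 monocyte genes (1352 against 363 to 612), of the 10 general leukocyte genes (13477 against 5638 to 7886) and of the 12 genes of recruited and lipid-associated macrophages (22576 against 4931 to 6781), and the lowest of the 8 hepatocyte genes (1519920 against 1723580 to 1912730). The marker results that these mice move most are also given without both of them. Gene positions refer to GRCm39. In a GENCODE annotation of that build, a non-coding RNA on the opposite strand overlaps the gene span of Cd163 over 16990 bases. Other such RNAs overlap the spans of Id3 (1547 bases) and Folr2 (7499 bases), and Hmgxb3, also on the opposite strand, that of Csf1r (875 bases). These spans include introns, and the overlap of exons was not computed. It was not checked whether the partners were in the annotation used for counting. Whether reads were counted by strand is not stated in the sources used here. Any mixing of reads between these 4 markers and their partners is therefore unknown.

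**Figure D1:**
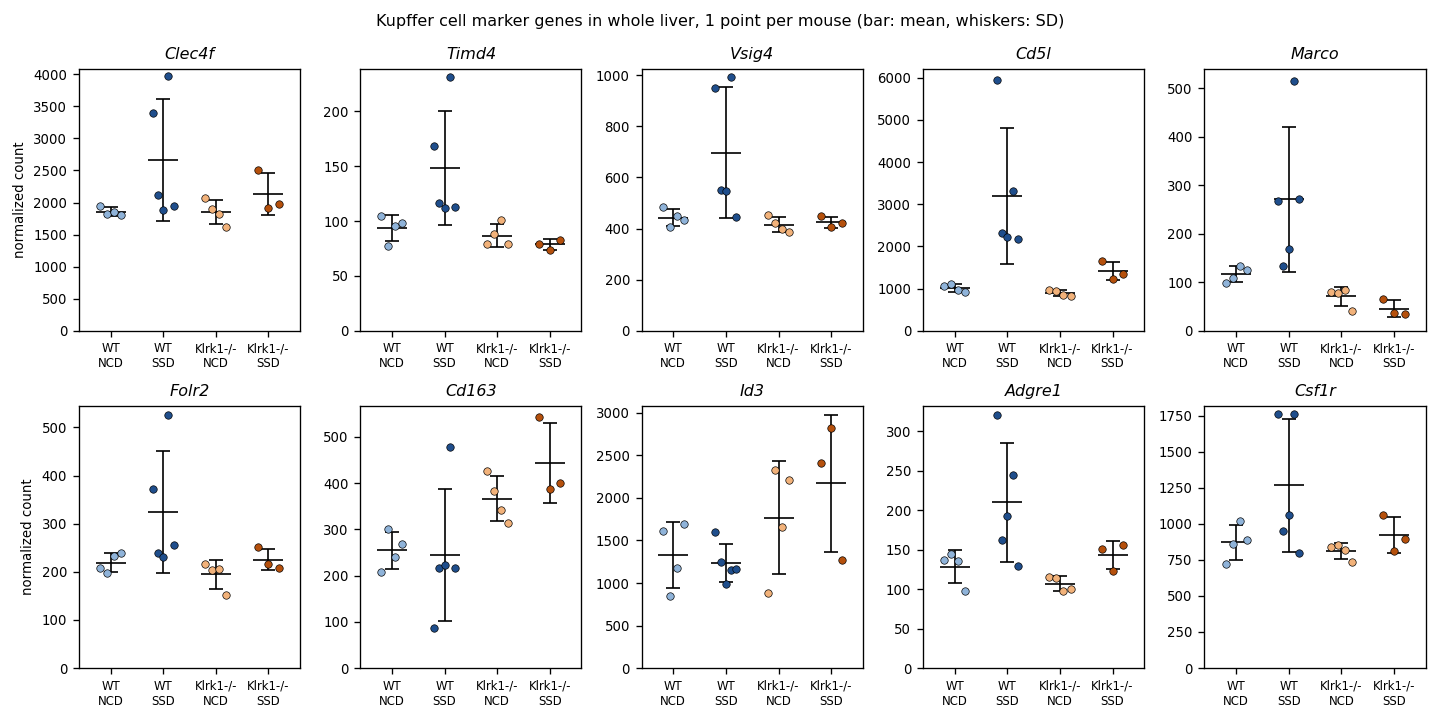
Normalized counts of the 10 Kupffer cell markers (vertical axes, each from 0) in the 4 groups, with 1 point per mouse, a bar at the group mean and whiskers of 1 SD. SSD-fed WT mice 1 and 4 lie above all other mice for 7 markers, while Marco is lowest in SSD-fed Klrk1-/- mice (35.1 to 65.7) and Cd163 does not exceed 301 in NCD-fed WT mice.

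All 10 markers were readily measured in NCD-fed WT liver, and their order is given per kilobase of transcript so that genes can be compared. Id3 had 1742 ± 514 normalized counts per kilobase (SD, n = 4) and Clec4f 1208 ± 42.9, and these highest levels overlapped between the genes. Cd5l followed with 500.3 ± 42.7, Vsig4 with 481 ± 35.4 and Csf1r with 427 ± 59.7, and each of these neighbours overlapped the next. Folr2 had 272 ± 24.7, below every Csf1r value. Marco (102 ± 13.8), Adgre1 (80.1 ± 13.3) and Cd163 (65.6 ± 10.3) were lower, each overlapping its neighbour, and Timd4 was the lowest marker, at 43.2 ± 5.38. Id3 is made by other liver cells as well, so its level is not that of macrophages alone.

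Of the changes in this order, those of Marco and Cd163 spanned the most ranks, while the others (Id3 with Clec4f, Cd5l with Vsig4, and Timd4) were of 1 rank. In SSD-fed Klrk1-/- mice, Cd163 stood at 114 ± 22.4 normalized counts per kilobase (SD, n = 3) and Marco at 39.8 ± 15.1, so that Cd163 ranked 7 and Marco 9 of the 10 genes, whereas in SSD-fed WT mice Marco ranked 7 (236 ± 130.0, n = 5) and Cd163 ranked 10 (63.0 ± 36.8). In that WT group each of the 9 neighbouring pairs overlapped.

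Promoter sequences are shown for the markers on which the comparisons below turn, Marco, Cd5l, Timd4 and Cd163. They are the 250 bases before the annotated start in the RefSeq promoter table of build GRCm38.p6, and each matched GRCm39 exactly and once, at chr1:120432754-120433003 (minus strand), chr3:87264938-87265187 (plus strand), chr11:46701376-46701625 (plus strand) and chr6:124281360-124281609 (plus strand). Capitals mark the core of the motif of PU.1, the factor on which all macrophages depend, on either strand.
Marco: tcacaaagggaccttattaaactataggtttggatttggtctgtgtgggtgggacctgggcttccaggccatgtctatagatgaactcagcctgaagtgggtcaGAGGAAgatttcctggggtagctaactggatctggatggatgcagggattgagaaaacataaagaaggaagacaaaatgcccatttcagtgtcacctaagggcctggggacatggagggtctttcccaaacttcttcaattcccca
Cd5l: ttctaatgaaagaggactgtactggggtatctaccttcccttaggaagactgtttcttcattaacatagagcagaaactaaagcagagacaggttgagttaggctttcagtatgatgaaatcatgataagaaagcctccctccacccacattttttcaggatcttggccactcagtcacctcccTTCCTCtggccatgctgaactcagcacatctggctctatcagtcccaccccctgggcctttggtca
Timd4: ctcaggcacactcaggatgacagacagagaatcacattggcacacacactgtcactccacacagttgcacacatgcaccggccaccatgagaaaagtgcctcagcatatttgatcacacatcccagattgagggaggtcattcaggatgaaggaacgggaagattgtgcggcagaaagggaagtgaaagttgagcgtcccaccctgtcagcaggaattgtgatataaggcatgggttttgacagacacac
Cd163: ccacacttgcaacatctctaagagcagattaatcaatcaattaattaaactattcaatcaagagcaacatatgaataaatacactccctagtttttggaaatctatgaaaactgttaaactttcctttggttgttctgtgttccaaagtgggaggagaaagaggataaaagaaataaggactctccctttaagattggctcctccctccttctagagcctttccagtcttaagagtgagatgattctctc
Marco holds 1 PU.1 core, starting 146 bases before the start, and Cd5l holds 1 on the opposite strand, starting 66 bases before it, while Timd4 and Cd163 hold none in these windows. Over the windows of 300 bases in the table, which reach 50 bases into the transcript, the PU.1 core GAGGAA was found in 4 of the 8 markers with an entry (Vsig4, Cd5l, Marco and Id3) and in 28.1% of all 32544 windows. The RBPJ core TGGGAA was found in 2 of 8 (Clec4f and Marco) and in 25.4%. The SMAD box GTCTG was found in 6 of 8 and in 49.5%, and the liver X receptor element, 2 copies of AGGTCA in the same direction with 4 bases between them, in 0 of 8 and in 0.0154%. Both strands were searched, no matches overlapped each other, and a match of these letters is a description of the sequence alone.

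The first comparison asked what SSD did to the markers in WT mice. Cd5l rose most, 2.90-fold, and Marco rose 2.08-fold, Adgre1 1.57-fold and Timd4 1.51-fold. These 4 of 10 markers passed as higher, and 0 as lower, where 11.9% of the 13091 genes tested passed as higher and 7.32% as lower. A call needed limma's adjusted p under 0.05 and a fold change over 1.5, so Timd4 lay just inside both limits and Vsig4, at 1.49-fold with an adjusted p of 0.0547, just outside both. On the recovered reads, edgeR (0.65, adjusted p = 0.0375) and DESeq2 (0.66, adjusted p = 0.0128) called Vsig4 and 5 markers in all. The median log2 fold change of the 10 markers was 0.54, against -0.0015 over all genes tested.

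Cd5l (ENSMUSG00000015854, chr3:87265188-87278380, plus strand) had 1056, 1122, 967 and 929 normalized counts in the 4 NCD-fed WT mice and 5957, 2311, 2227, 3325 and 2185 in the 5 SSD-fed ones. Every SSD-fed mouse was above every NCD-fed mouse, and mouse 1 was the highest. The log2 fold change was 1.54 ± 0.25 (SE), with limma's adjusted p = 0.000787 and an exact two-sided permutation p of 0.0159, the smallest that 5 against 4 mice allow. It was called with each mouse left out in turn, and was 1.14 without mice 1 and 4 (limma's adjusted p = 6.84e-06).

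Marco (ENSMUSG00000026390, chr1:120402267-120432753, minus strand) had 98.9, 109.7, 134 and 126 normalized counts on NCD and 267, 133, 168, 515 and 272 on SSD. The groups overlapped, since SSD-fed mouse 2 lay below the highest NCD-fed mouse. This was a log2 fold change of 1.05 ± 0.31 (SE) (limma's adjusted p = 0.0206), and 0.65 without mice 1 and 4 (adjusted p = 0.0445). Without NCD-fed WT mouse 1 the adjusted p was 0.0636, and the call was lost.

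Timd4 (ENSMUSG00000055546, chr11:46701627-46735159, plus strand) had 105, 77.5, 95.2 and 98.2 normalized counts on NCD and 169, 117, 112, 231 and 113 on SSD. The groups did not overlap, but 3 of the 5 SSD-fed mice lay close above the NCD-fed mice. On the log2 scale the difference was 0.60 ± 0.21 (SE) (limma's adjusted p = 0.0477). Leaving out any 1 of the 4 NCD-fed WT mice, or SSD-fed WT mouse 1 or 4, ended the call (adjusted p = 0.0686 to 0.122), and without mice 1 and 4 together the value was 0.28 (adjusted p = 0.191).

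Adgre1 (ENSMUSG00000004730, chr17:57665691-57790527, plus strand) had 136, 145, 136 and 97.1 normalized counts on NCD and 321, 162, 192, 245 and 129.8 on SSD, where mouse 5 lay among the NCD-fed mice. The change was, on the log2 scale, 0.65 ± 0.23 (SE) (limma's adjusted p = 0.0474). The call ended without any 1 of the 4 NCD-fed mice or SSD-fed mouse 1, 3 or 4 (adjusted p = 0.0613 to 0.129), and the value was 0.33 without mice 1 and 4 (adjusted p = 0.203).

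The remaining 6 markers did not pass. Clec4f (ENSMUSG00000014542, chr6:83621524-83633169, minus strand) had 1952, 1820.3, 1860.1 and 1805 normalized counts on NCD and 3396, 2124, 1886, 3967 and 1953 on SSD, so that SSD-fed mouse 3 lay among the NCD-fed mice, mice 2 and 5 just above them and mice 1 and 4 far above. Its log2 fold change was 0.45 (95% interval 0.0092 to 0.89, limma's adjusted p = 0.103) and 0.095 without these mice. Vsig4 (ENSMUSG00000044206, chrX:95290809-95337044, minus strand) had 484, 405, 447 and 435 on NCD and 949, 550.0, 546, 994 and 444 on SSD, a log2 fold change of 0.58 (adjusted p = 0.0547), and 0.21 without mice 1 and 4. Folr2 (ENSMUSG00000032725, chr7:101489195-101506401, minus strand) had 207, 197, 233 and 238 on NCD and 371, 239, 231, 526 and 255 on SSD, a log2 fold change of 0.49 (adjusted p = 0.0979) and 0.14 without them. Csf1r (ENSMUSG00000024621, chr18:61233670-61265221, plus strand) had 721, 862, 1019 and 885 normalized counts on NCD and 1764, 949.6, 1059, 1766 and 798 on SSD, and its log2 fold change of 0.47 (adjusted p = 0.12) became 0.10.

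Cd163 and Id3 had the lowest log2 fold changes of the 10, -0.24 (95% interval -1.01 to 0.52) and -0.077 (95% interval -0.50 to 0.34). For Cd163 the SSD-fed mice spread from 87.0 in mouse 1 to 478 in mouse 4, which lie on either side of all 4 NCD-fed mice. Without mice 1 and 4, the median log2 fold change of the 10 markers was 0.18, and 2 markers, Cd5l and Marco, were called, where 15.4% of all genes were called in either direction. Beside the marker changes, the summed hepatocyte genes ranged from 2342850 to 2640580 normalized counts on NCD and from 1519920 to 1912730 on SSD, with no overlap. Most of this sum was Alb (means of 1717360 on NCD and 1249780 on SSD), which was not called (limma's adjusted p = 0.277). The normalized total of all genes was also lower on SSD, at 19222000 to 21373600 against 25001200 to 27985200 on NCD. Scaling every mouse to the same total instead of the authors' factors moved the median of all genes by 0.34 and called 8 of the 10 markers higher, with 3467 of the 13091 genes tested. Under that scaling Cd163 and Id3 turned to 0.10 and 0.27, neither of them called, and in the Klrk1-/- diet comparison below Timd4 turned to 0.12.

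**Figure D2:**
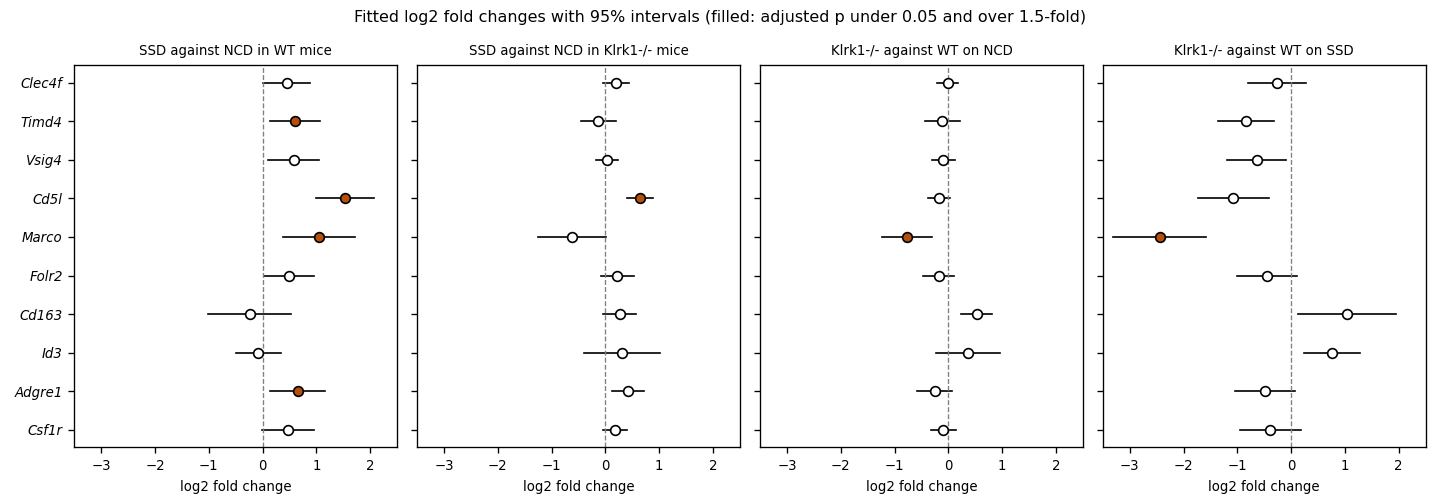
Fitted log2 fold changes of the 10 markers (horizontal axes) with their 95% intervals in 4 comparisons, where filled points passed limma's adjusted p under 0.05 and a 1.5-fold change. The WT diet panel has 4 filled points to the right of 0, the Klrk1-/- diet panel has 1 (Cd5l), and each genotype panel has 1 to the left (Marco).

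In Klrk1-/- mice, SSD raised Cd5l 1.56-fold. It was the only 1 of the 10 markers called, where 6.54% of the 12904 genes tested were called higher and 6.6% lower, and the median log2 fold change of the markers was 0.21. Cd5l had 965, 949, 861 and 819 normalized counts on NCD and 1647, 1234 and 1349 on SSD, with no overlap. The log2 fold change was 0.64 ± 0.11 (SE) (limma's adjusted p = 0.00109), and the exact two-sided permutation p was 0.0571, the smallest that 3 against 4 mice allow. Without SSD-fed Klrk1-/- mouse 1 it was 0.52, under the fold limit (adjusted p = 0.00695), and with all 4 groups in 1 limma model the call ended (adjusted p = 0.0653).

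Adgre1 had 115, 114, 97.0 and 99.6 normalized counts in NCD-fed Klrk1-/- mice and 151, 123 and 156 in SSD-fed ones, again with no overlap. Its log2 fold change of 0.42 ± 0.14 (SE) had a limma adjusted p of 0.0384, but at 1.34-fold it stayed under the fold limit. Groups of 2 of the 10 markers did not overlap, against 37.6% of all genes tested. In WT mice the corresponding count was also 2 of 10, Cd5l and Timd4, against 29%.

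The other 8 markers were not called in Klrk1-/- mice. Vsig4 had 453, 421, 399 and 385 on NCD and 448, 406 and 420.0 on SSD (log2 fold change 0.036, 95% interval -0.17 to 0.24), and the groups overlapped throughout. Timd4 had 79.3, 88.3, 101 and 78.7 on NCD and 79.2, 73.9 and 83.1 on SSD, overlapping groups with a log2 fold change of -0.13 (95% interval -0.46 to 0.19). Clec4f had 2064, 1895, 1821 and 1616 on NCD and 2510.0, 1917 and 1972 on SSD, where mouse 1 alone lay above the NCD-fed mice. Csf1r, at 0.18 (95% interval -0.046 to 0.40), and Folr2, at 0.22 (95% interval -0.088 to 0.53), were not called either. Marco was the lowest of the 10, with 80.4, 78.4, 83.3 and 40.6 normalized counts on NCD and 65.7, 36.1 and 35.1 on SSD. Its log2 fold change was -0.63 ± 0.29 (SE) (limma's adjusted p = 0.125), and without NCD-fed Klrk1-/- mouse 4, at 40.6, it was -0.87 and called lower (adjusted p = 0.0253).

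The comparison of genotypes on NCD asked whether the markers differed on normal chow. Marco was 1.70-fold lower in Klrk1-/- mice, the single call of the 10 markers, where 2.87% of the 12845 genes tested were called lower and 2.92% higher. These 744 calls over all genes became 425 without NCD-fed Klrk1-/- mouse 3. The median log2 fold change of the markers was -0.10, and Marco and Cd163 were the 2 markers whose groups did not overlap, against 19.3% of all genes.

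The 4 NCD-fed Klrk1-/- mice, at 80.4, 78.4, 83.3 and 40.6 normalized counts of Marco, lay below the 4 NCD-fed WT mice, at 98.9, 109.7, 134 and 126. This was a log2 fold change of -0.77 ± 0.22 (SE) (limma's adjusted p = 0.0375, exact two-sided permutation p = 0.0286, the smallest possible here). The call ended without any 1 of the 4 NCD-fed WT mice, or without NCD-fed Klrk1-/- mouse 2 or 4 (adjusted p = 0.0527 to 0.0877), and with all 4 groups in 1 limma model (adjusted p = 0.122). On the log2 scale the difference was -0.52 without NCD-fed Klrk1-/- mouse 4, the lowest.

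Cd163 (ENSMUSG00000008845, chr6:124281615-124307486, plus strand) went the other way, with 425, 383, 341 and 314 normalized counts in NCD-fed Klrk1-/- mice and 207, 301, 239.8 and 268 in NCD-fed WT mice. The log2 fold change was 0.53 ± 0.13 (SE) (limma's adjusted p = 0.0259), and at 1.44-fold it was not called. It passed as higher without NCD-fed WT mouse 2 (0.61, adjusted p = 0.0234) or NCD-fed Klrk1-/- mouse 4 (0.60, adjusted p = 0.0243). The gene lies on chromosome 6, 5.28 Mb from Klrk1, and Clec4f lies on the same chromosome 46 Mb away. Clec4f itself differed by -0.013 (95% interval -0.21 to 0.18), with 2064, 1895, 1821 and 1616 normalized counts in Klrk1-/- mice, and the genotypes overlapped. Timd4 (-0.11, 95% interval -0.44 to 0.21), Vsig4 (-0.095, 95% interval -0.30 to 0.12) and Csf1r (-0.10, 95% interval -0.33 to 0.14) were not called, with groups that overlapped.

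Id3 (ENSMUSG00000007872, chr4:135870808-135873066, plus strand) varied widely within both NCD-fed groups. NCD-fed WT mice had 1610.0, 849, 1176 and 1688 normalized counts and NCD-fed Klrk1-/- mice 879, 2331, 1658 and 2209, so both groups held low and high values and overlapped over most of their range. The difference of 0.37 had a 95% interval of -0.24 to 0.97.

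On SSD, Marco was 5.45-fold lower in Klrk1-/- mice than in WT mice. It was again the single call of the 10 markers, where 1.42% of the 13116 genes tested were called lower and 0.709% higher. The markers' median log2 fold change was -0.47, with 8 of 10 lower in Klrk1-/- mice, and 3 of 10 (Timd4, Cd5l and Marco) had groups that did not overlap, against 17.9% of all genes. Without SSD-fed WT mice 1 and 4 the median was -0.13 and 3 markers were called, Marco and Cd5l as lower and Cd163 as higher, while the calls over all genes went from 279 to 431 (3.32%). The count over all genes hung on single mice, and became 45 (0.342%), 80 and 61 without SSD-fed Klrk1-/- mouse 1, 2 or 3, and 447, 143 and 135 without SSD-fed WT mouse 1, 2 or 3.

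Marco had 65.7, 36.1 and 35.1 normalized counts in the 3 SSD-fed Klrk1-/- mice and 267, 133, 168, 515 and 272 in the 5 SSD-fed WT mice. The groups were far apart, with the highest Klrk1-/- mouse well below the lowest WT mouse. This was a log2 fold change of -2.45 ± 0.39 (SE) (limma's adjusted p = 0.0138), and the exact two-sided permutation p was 0.0357, the smallest that 3 against 5 mice allow. Without SSD-fed Klrk1-/- mouse 2 or 3 the log2 fold change was -2.31 or -2.29, with adjusted p-values of 0.0719 and 0.0785 that ended the call, and without WT mice 1 and 4 it was -2.04 (adjusted p = 0.00504).

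Cd5l had 1647, 1234 and 1349 normalized counts in SSD-fed Klrk1-/- mice and 5957, 2311, 2227, 3325 and 2185 in SSD-fed WT mice. All 3 Klrk1-/- values lay below the WT values. The log2 fold change of -1.07 ± 0.30 (SE) missed the threshold (limma's adjusted p = 0.0779). Without WT mice 1 and 4 it was -0.68 and called (adjusted p = 0.00858), and without mouse 1 alone, the highest, it was -0.82 and called (adjusted p = 0.0124).

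Timd4 had 79.2, 73.9 and 83.1 normalized counts in SSD-fed Klrk1-/- mice and 169, 117, 112, 231 and 113 in SSD-fed WT mice, again without overlap. Its log2 fold change of -0.84 ± 0.24 (SE) had a limma adjusted p of 0.0813, and it was -0.53 without mice 1 and 4 (adjusted p = 0.052). Timd4 was called lower with DESeq2 on the recovered reads (-0.91, adjusted p = 0.0145) and with all 4 groups in 1 limma model (-0.84, adjusted p = 0.0192). Vsig4 had 448, 406 and 420.0 normalized counts against 949, 550.0, 546, 994 and 444, where 1 Klrk1-/- mouse lay above WT mouse 5. Its log2 fold change was -0.64 (adjusted p = 0.169), and -0.27 without mice 1 and 4.

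Cd163 and Id3 were the 2 markers that were higher in SSD-fed Klrk1-/- mice. Cd163 had 544, 388 and 399 normalized counts there and 87.0, 215, 224, 478 and 216 in SSD-fed WT mice, so that only WT mouse 4 reached the Klrk1-/- range. On the log2 scale the difference was 1.04 ± 0.41 (SE) (limma's adjusted p = 0.174), and 1.0 without mice 1 and 4, which was called (adjusted p = 0.00376). Mice 1 and 4 are the lowest and the highest of their group for Cd163. Their removal narrowed the spread while the difference hardly moved, so this call adds no support. Id3 had 2412, 2828 and 1276 against 1596, 1251, 989.8, 1153 and 1169 and a log2 fold change of 0.76 ± 0.23 (SE) (limma's adjusted p = 0.103). Without WT mouse 1, or without Klrk1-/- mouse 3, the lowest of its group, Id3 was called (adjusted p = 0.0475 and 0.037).

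Csf1r had 1061, 813 and 894 normalized counts in Klrk1-/- mice, a log2 fold change of -0.39 (95% interval -0.96 to 0.18) that was -0.020 without mice 1 and 4. Adgre1 had -0.49 (95% interval -1.05 to 0.078), Folr2 -0.45 (95% interval -1.0 to 0.10) and Clec4f -0.26 (95% interval -0.80 to 0.28), and without mice 1 and 4 these were -0.16, -0.10 and 0.093. None of these 4 markers was called, and their groups overlapped.

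An interaction term over all 16 mice asked whether SSD acted differently on the markers in the 2 genotypes. No marker passed, where 0.849% of the 13068 genes tested were called in either direction, while 3 of 10 had an unadjusted p under 0.05 by limma, as did 17.3% of all genes tested. Marco differed most, by -1.68 ± 0.48 (SE) on the log2 scale (limma's adjusted p = 0.0964). The diet effect on Marco was 1.05 in WT and -0.63 in Klrk1-/- mice. DESeq2 on the recovered reads called Marco alone of the markers (-1.85, adjusted p = 0.0127), with 2.71% of all genes, and edgeR called 0 markers, with 0.666%. Over all genes, limma's 111 calls became 39 and 37 without SSD-fed Klrk1-/- mouse 1 or 3, 63 to 69 without SSD-fed WT mouse 4, NCD-fed WT mouse 1 or NCD-fed Klrk1-/- mouse 1 or 2, and 185 without SSD-fed WT mouse 5. Cd5l differed by -0.89 ± 0.33 (SE) (limma's adjusted p = 0.182) and Timd4 by -0.73 ± 0.28 (SE) (adjusted p = 0.203). Without SSD-fed WT mice 1 and 4 these were -1.27, -0.50 and -0.42 (adjusted p = 0.167, 0.14 and 0.377). For Clec4f, Folr2, Adgre1 and Csf1r the difference was then between 0.075 and 0.11, while in all mice it was between -0.29 and -0.23.

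To see how the markers stood to one another within a liver, each was divided by Csf1r of the same mouse, on the log2 scale. Clec4f over Csf1r was 1.10 ± 0.24 (SD, n = 4) in NCD-fed WT mice, 1.08 ± 0.19 (n = 5) in SSD-fed WT mice, 1.18 ± 0.074 (n = 4) in NCD-fed Klrk1-/- mice and 1.21 ± 0.057 (n = 3) in SSD-fed Klrk1-/- mice, and the 4 groups overlapped. Folr2 also overlapped in all 4 comparisons, with differences between -0.083 and 0.040. These ratios share their denominator, and they are given as a description with no test.

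**Figure D3:**
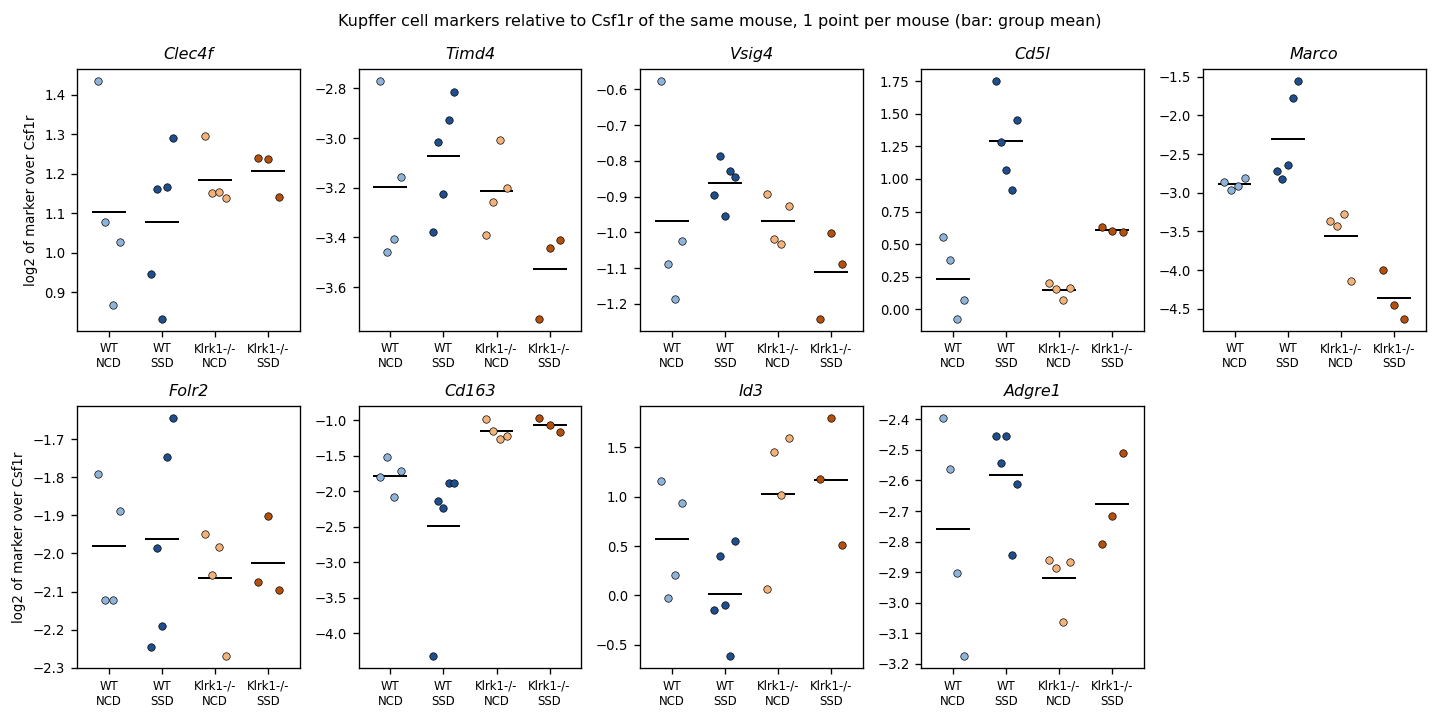
Log2 of each marker over Csf1r of the same mouse (vertical axes) in the 4 groups, with 1 point per mouse and a bar at the group mean. Cd5l is higher on SSD in both genotypes, Marco is lower and Cd163 higher in Klrk1-/- mice on both diets, and Clec4f stays near 1.1 to 1.2.

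Cd5l was higher against Csf1r on SSD in both genotypes. In WT mice the log2 ratio was 0.55, 0.38, -0.076 and 0.070 on NCD and 1.76, 1.28, 1.07, 0.91 and 1.45 on SSD. In Klrk1-/- mice it was 0.20, 0.16, 0.073 and 0.16 on NCD and 0.63, 0.60 and 0.59 on SSD. Neither pair of groups overlapped, and the differences of the means were 1.06 and 0.46. On SSD the Klrk1-/- mice lay below the WT mice by 0.69, also without overlap.

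Marco and Cd163 parted by genotype. The log2 ratio of Marco was -2.85, -2.96, -2.92 and -2.80 in NCD-fed WT mice and -3.37, -3.43, -3.28 and -4.14 in NCD-fed Klrk1-/- mice, a difference of -0.67. On SSD it was -2.72, -2.82, -2.65, -1.78 and -1.55 in WT and -3.99, -4.45 and -4.63 in Klrk1-/- mice, a difference of -2.06. Cd163 had -1.79, -1.51, -2.08 and -1.72 in NCD-fed WT mice and -0.98, -1.15, -1.26 and -1.22 in NCD-fed Klrk1-/- mice, a difference of 0.62. On SSD it had -4.33, -2.13, -2.24, -1.88 and -1.88 in WT and -0.96, -1.07 and -1.16 in Klrk1-/- mice, a difference of 1.43. None of these 4 pairs of groups overlapped. On SSD, Timd4 and Vsig4 over Csf1r were also lower in Klrk1-/- than in WT mice, with differences of -0.45 and -0.25 and no overlap, and in Klrk1-/- mice Timd4 over Csf1r was lower (-0.31) and Adgre1 over Csf1r higher (0.24) on SSD than on NCD, also with no overlap. WT mouse 1 had the lowest Cd163 ratio on SSD, and WT mice 4 and 5 the highest Marco ratios.

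Within groups, 6 of the markers varied together from mouse to mouse, a set chosen after the correlations were seen. After subtraction of each group's mean, the 15 pairs of Clec4f, Timd4, Vsig4, Folr2, Adgre1 and Csf1r correlated with Pearson's r of 0.52 to 0.94 (median 0.84) over 16 mice. Without the SSD-fed WT group, the median was 0.37 over 11 mice and the lowest -0.22. Cd5l correlated with each of these 6 at 0.54 to 0.86, and at -0.17 with Timd4 without the SSD-fed WT group. The correlations are across mice whose marker values come from the same library, and SSD-fed WT mice 1 and 4 were 0.25 to 0.68 and 0.29 to 0.77 above their group mean for these 6 genes on the log2 scale. Cd163 and Id3 did not share this, with a median r to the other markers of 0.052 and 0.051. For Cd163 the median was 0.52 without the SSD-fed WT group, in which mouse 1 lay at -1.28 and mouse 4 at 1.16 from the mean.

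**Figure D4:**
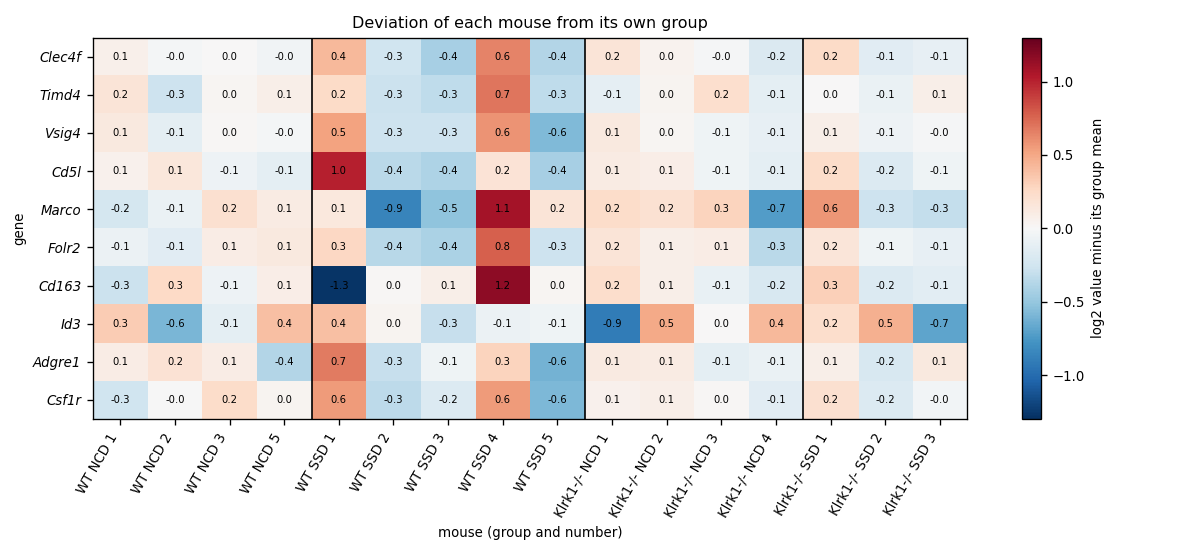
Log2 value of each marker (rows) in each mouse (columns) minus the mean of its own group, with red above and blue below. SSD-fed WT mice 1 and 4 are above their group mean for most markers, except Cd163 in mouse 1 and Id3 in mouse 4.

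For each marker, the gene most like it was sought by the same within-group correlation among 13067 other genes. The highest of so many correlations over so few mice can be large by chance alone, and no chance level was computed. Clec4f was closest to Vsig4 (r = 0.94), and Folr2 to Clec4f (r = 0.92), while for the other 8 markers the closest gene was no marker. Vsig4 was closest to C1qa (r = 0.94) and Csf1r to C1qc (r = 0.94), which encode chains of complement C1q, a product of macrophages. Cd5l was closest to Cyba (r = 0.97), a subunit of the phagocyte oxidase. Marco was closest to Abca9 (r = 0.95), Timd4 to Utp23 (r = 0.90), Adgre1 to Eif4e3 (r = 0.94), Cd163 to Gpi1 (r = 0.88) and Id3 to Vps25 (r = 0.83). Cdca8 was among the 3 closest genes of Clec4f, Aurka of Vsig4, Ube2t of Timd4 and Ncapg2 of Adgre1 (r = 0.89 to 0.93). Their r without the SSD-fed WT group was 0.71, 0.39, 0.65 and 0.68. For the closest gene of each of the 10 markers it was then between 0.67 and 0.90. The mice left are among those by which the genes were chosen, so this is no separate check.

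Of 20 other genes known from Kupffer cells, 16 rose and 1 fell in SSD-fed WT mice, where 11.9% of all genes were called higher and 7.32% lower, and their median log2 fold change was 0.85. Without mice 1 and 4, 10 of 19 tested were called higher and 1 lower, beside 1093 and 901 of all 12974 genes. Slc40a1, the iron exporter ferroportin, went from 1514 ± 109 (SD, n = 4) to 3794 ± 489 (SD, n = 5) normalized counts, a log2 fold change of 1.32 ± 0.10 (SE) (limma's adjusted p = 3.42e-06). Hmox1, which breaks down haem, had 1.26 ± 0.21 (SE) (adjusted p = 0.000841), and the lectin receptor gene Clec1b 1.41 ± 0.24 (SE) (adjusted p = 0.00107). Fabp7 (1.59), Xlr (1.52) and Creg1 (0.76) rose as well, and C6, a complement component, fell by 1.10. These are values of whole liver RNA, to which other cells may add, and the share of Kupffer cells in them was not tested. In Klrk1-/- mice, where 6.54% of all genes were called higher, 3 of 19 rose on SSD, Slc40a1 (1.25), Creg1 (1.09) and Hmox1 (0.66), and C6 fell by 1.76. Between genotypes, Clec1b was higher in NCD-fed Klrk1-/- mice (0.67 ± 0.17 (SE), limma's adjusted p = 0.0237), and Hmox1 lower in SSD-fed ones (-1.01 ± 0.23 (SE), adjusted p = 0.0461).

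Of 12 transcription factors that act in Kupffer cells, 3 rose in SSD-fed WT mice (11.9% of all genes), and 1 rose without mice 1 and 4 (1093 of 12974 genes), which is near the share over all genes. Id1, a relative of Id3, rose by 1.85 ± 0.31 (SE) (limma's adjusted p = 0.000894), Spi1, which encodes PU.1, by 1.07 ± 0.31 (SE) (adjusted p = 0.0186), and Irf8 by 0.80 ± 0.24 (SE) (adjusted p = 0.0231). In Klrk1-/- mice Id1 rose by 1.87 on SSD. Between genotypes, Id1 was higher in Klrk1-/- mice by 1.2 ± 0.27 (SE) on NCD (adjusted p = 0.0151). Nr1h3, which encodes liver X receptor alpha, had a log2 fold change of -0.44 in WT and -0.26 in Klrk1-/- mice (adjusted p = 0.0022 and 0.0276), under the fold limit, and Rxra -0.10 and 0.37.

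Genes of signalling in the Kupffer cell niche, 7 ligands and the receptors Acvrl1, Notch1 and Notch2, counted 3 rises among 10 in SSD-fed WT mice (11.9% of all genes), Tgfb1 (0.91), Acvrl1 (0.73) and Bmp10 (0.63). In SSD-fed Klrk1-/- mice Bmp10 alone of the 10 rose (0.67), near the 6.54% over all genes. Between genotypes on NCD, Dll4, a Notch ligand, was higher in Klrk1-/- mice (0.87 ± 0.23 (SE), limma's adjusted p = 0.0299) and Csf1, a ligand of CSF1R, lower (-0.79 ± 0.14 (SE), adjusted p = 0.00429). On SSD the median of the 10 between genotypes was -0.026. Without SSD-fed WT mice 1 and 4, the WT diet comparison called 2 niche genes higher, beside 1093 of 12974 genes.

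**Figure D5:**
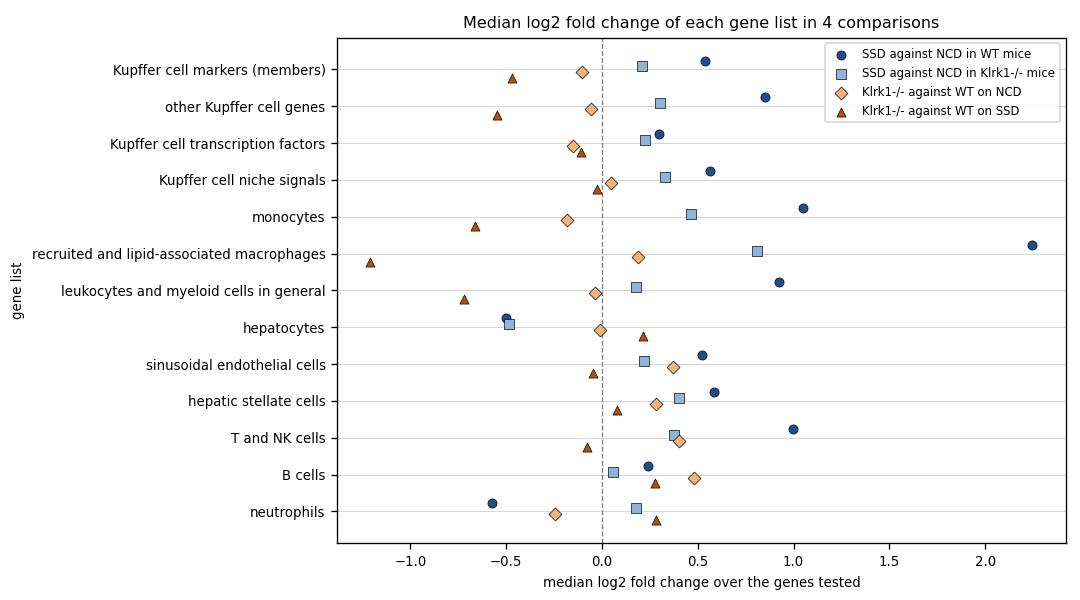
Median log2 fold change (horizontal axis) over the tested genes of each of 13 gene lists (rows) in 4 comparisons (symbols). The list of recruited and lipid-associated macrophages has the highest median for SSD in WT mice (2.25) and the lowest for Klrk1-/- against WT on SSD (-1.21), and the 10 Kupffer cell markers are at 0.54 and -0.47.

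Genes of other macrophages and of blood-derived cells moved beside the markers, and their part in the marker values was not tested. In SSD-fed WT mice, 9 of 12 genes of recruited and lipid-associated macrophages rose and 1, Fabp5, fell, where 11.9% of all genes were called higher and 7.32% lower, with a median log2 fold change of 2.25. Mmp12 rose by 5.14, Gpnmb by 5.02, Lgals3 by 2.83 and Trem2 by 2.74. Of 8 monocyte genes tested 6 rose, Ccr2 by 1.71 ± 0.37 (SE) (limma's adjusted p = 0.00425), and of 10 general leukocyte genes 7 rose, Cd68 by 1.89 ± 0.20 (SE) (adjusted p = 3.87e-05). Without mice 1 and 4 these counts were 9 of 12, 2 of 7 and 4 of 10, beside 1093 of 12974 genes. The summed monocyte genes ranged from 234 to 364 normalized counts on NCD and from 363 to 1352 on SSD in WT mice.

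In Klrk1-/- mice on SSD, 8 of 12 genes of recruited and lipid-associated macrophages rose and Fabp5 fell (6.54% of all genes rose and 6.6% fell), while the median log2 fold changes of the 6 monocyte genes tested and of the 10 leukocyte genes were 0.46 and 0.17. The summed monocyte genes were 291 to 314 normalized counts on NCD and 352 to 384 on SSD. Against SSD-fed WT mice, SSD-fed Klrk1-/- mice had lower Mmp12 (-3.39 ± 0.61 (SE), limma's adjusted p = 0.0228), Lgals3 (-2.28 ± 0.36 (SE), adjusted p = 0.0132) and Cd68 (-1.36 ± 0.21 (SE), adjusted p = 0.0135). These 3 genes were also called for the interaction, at -3.52, -2.57 and -1.57.

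Of 8 genes of sinusoidal endothelial cells 3 rose in SSD-fed WT mice, where 11.9% of all genes did, and their median log2 fold change was 0.52 there and 0.22 in Klrk1-/- mice. Of 8 stellate cell genes 3 rose on SSD in WT mice, and 2 in Klrk1-/- mice (6.54% of all genes). Without mice 1 and 4, the WT diet comparison called 1 of 8 stellate cell genes higher, near the 1093 of 12974 over all genes. It then called 4 of 8 sinusoidal endothelial genes higher, with a median of 0.61. Of 8 hepatocyte genes 3 fell on SSD in each genotype (7.32% of all genes in WT and 6.6% in Klrk1-/- mice), with medians of -0.50 and -0.48. On NCD, Stab1 of sinusoidal endothelium was higher in Klrk1-/- mice (0.65 ± 0.19 (SE), limma's adjusted p = 0.04), as was Ighm of B cells (1.34 ± 0.21 (SE), adjusted p = 0.0026), whose log2 fold change with SSD was -1.98 ± 0.22 (SE) in WT and -3.59 ± 0.12 (SE) in Klrk1-/- mice (adjusted p = 4.55e-05 and 3.57e-09). Among T and NK cell genes Trac rose in SSD-fed WT mice (0.99, adjusted p = 0.0398), a call that was not made without mice 1 and 4, and the 3 neutrophil genes tested there had a median of -0.57.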

How the data were processed

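The deposited table held normalized counts for 25719 genes in 16 mice, a signal in which the authors divided the reads of each mouse by 1 factor, and the length of each gene. Per the labels and the study's methods, single reads of 100 bases were aligned with STAR to GRCm39 and counted with FeatureCounts on GENCODE genes, and DESeq2 was used. How the factors were made, and whether strand was counted, is not given in the sources used here. The labels name a TruSeq mRNA kit and the methods a TruSeq total RNA kit. The low values are whole multiples of 1 step in each mouse, so whole reads could be recovered for 100% of the values (largest distance from a whole number 0.0011, tolerance 0.01). Depth was 19892025 to 28936707 reads per mouse.

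Tests were made with limma 3.58.1 (R 4.3.3), with a trend in the variances, on log2(normalized count + 1), over the groups compared, for genes with a mean of at least 10, with Benjamini-Hochberg adjustment over all genes tested. Log2 fold changes are on that scale. A call needed an adjusted p under 0.05 and a fold change over 1.5, and exact two-sided permutation tests were made for single genes. In the Klrk1-/- diet comparison the exact test cannot go below 0.0571. The code was tested on simulated data. Each mouse is 1 sample, and whether mice shared a cage or litter is not stated, so p-values measure the spread between these mice.

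The 10 markers and all gene lists were chosen with earlier results of these data known. All markers and the gene most like each marker were named, with some further genes of the lists and of the closest genes. Most genes named from the lists were called ones. Not all abundant or called genes of a list were named, while the counts cover all genes tested in it. Some results on transcription factors and their motifs are not reported here. Alternatives were the pseudocount, the minimum mean, 2 other scalings, edgeR 4.0.16 and DESeq2 1.42.0 on the recovered reads, robust variances, a replicate block, all 4 groups in 1 model, other fold limits and each mouse left out in turn. Leaving out SSD-fed WT mice 1 and 4 together was added after seeing the data. Columns with the authors' own fold changes and p-values were not used.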

Additional observations from a re-analysis of the deposited data

Results flagged for a closer look

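Marco in NCD-fed Klrk1-/- mouse 4 was 40.6 normalized counts, far below the next mouse of its group at 78.4, a gap of 0.885 of the group's range, above Dixon's critical value at 95% for 4 mice. It was the single such value in 30 tests, which do not cover every marker in every group, and chance gives about 1 in 20. For Timd4 and Marco, the fitted diet effect was above 0 in WT mice and below 0 in Klrk1-/- mice, where neither passed the test, with a difference of the diet effects of -0.73 for Timd4 (limma's adjusted p = 0.203) and -1.68 for Marco (limma's adjusted p = 0.0964), neither of which passed. Timd4 in Klrk1-/- mice was at 0.12 with every mouse scaled to the same total.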

How the results depend on the processing

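Of 1150 log2 fold changes of markers under the alternatives, 1050 counted as unchanged. These stayed called in the same direction, or stayed uncalled and moved by less than the standard error of the main fit. Of the rest, 40 lost their call, 29 gained one, 31 moved further without a call, and 0 called values changed sign. Of the calls in the report, Cd5l on SSD in WT mice held under every alternative run. The 4 markers called in WT mice became 8 with every mouse scaled to the same total, and 2 with no minimum mean, with quantile normalization, with a fold limit of 2 and without SSD-fed WT mice 1 and 4, and they ranged from 1 to 6 with each mouse left out. The 1 marker called in the Klrk1-/- diet comparison became 2 with the same total and with no fold limit, 0 with all 4 groups in 1 model and with a fold limit of 2, and ranged from 0 to 2 with each mouse left out. The 1 called between genotypes on NCD became 0 with no minimum mean, with all 4 groups in 1 model and with a fold limit of 2, 2 with no fold limit, and 0 to 1 with each mouse left out. The 1 called on SSD became 4 with DESeq2, 3 with all 4 groups in 1 model and without SSD-fed WT mice 1 and 4, and 0 to 3 with each mouse left out. The interaction count of 0 became 1 with DESeq2. The cause of these changes was not tested. Over all genes, the same total moved the median by 0.34 in WT and 0.25 in Klrk1-/- mice, and the split of higher and lower calls from 1564 and 958 to 3467 and 409, and from 844 and 852 to 2122 and 480. Between genotypes on SSD, it moved the median by -0.12 and the split from 93 and 186 to 52 and 272, and DESeq2 called 669 genes in place of 279.

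The replicate numbers are shared between groups but belong to different mice. Same-numbered mice correlated between -0.13 and 0.25 after removal of the group means, and 4 of 13 correlated best with their own number, so the numbers were not taken to pair the mice. With the number as a replicate block, which leaves out mice with no partner in the other group, 2 markers were called in the WT diet comparison, 2 in the Klrk1-/- diet comparison and 3 between genotypes on SSD. On NCD the block ended the call of Marco (-0.49, limma's adjusted p = 0.0819) and called Cd163 (0.63, adjusted p = 0.0217), so its count of 1 was another gene. Over all genes, the block called 1129 in place of 744 between genotypes on NCD, 595 in place of 279 on SSD and 42 in place of 111 for the interaction.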
